A study of Homo sapiens with 35 samples.

Results

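The regions described here are 757 ETS1 binding sites in U-87 MG cells that were found in both ETS1 ChIP-seq replicates after TWEAK and that shared no base with a site found in both replicates without TWEAK. They were chosen by merging overlapping peaks within a condition, keeping merged peaks with a peak in both replicates, and removing every TWEAK site on chromosomes 1 to 22 and X that overlapped an untreated site by 1 bp or more. By the same rule, 1118 sites were common to both conditions and 368 were found only without TWEAK, so that the 757 sites made up part of 1875 sites with TWEAK and of 2243 sites in all. The rule uses the presence of ETS1 peaks, and ETS1 peak strength is therefore given below as a description without a test. The name of the set is not borne out at the level of single libraries: 538 of the 757 sites (71.1%) carried a peak in at least 1 untreated library, and they are called differential sites here for the rule and not for an absence of ETS1 in untreated cells.

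The U-87 MG line was derived from a human glioblastoma and is in wide use. Control cells are CRISPR control cells, and ETS1 KD and NFKB2 KD cells carry a guide against ETS1 or NFKB2 delivered with the lentiviral CRISPR vector lentiCRISPRv2. Cells were seeded in medium with serum and starved for some hours in Opti-MEM, and treated cells then received 10 ng/ml of TWEAK for 48 h. How untreated cells were handled during the starvation and the 48 h is not stated in the sources used here. ETS1 ChIP-seq was made on control cells, untreated (2 libraries) and with TWEAK (2 libraries). RNA Pol II ChIP-seq covered control untreated, control TWEAK, ETS1 KD TWEAK and NFKB2 KD TWEAK cells, and p52 ChIP-seq covered control untreated, control TWEAK and TWEAK-treated ETS1 KD cells made with guide 1 or guide 2, with 2 libraries each. RNA-seq was made on control untreated, control TWEAK, ETS1 KD TWEAK and NFKB2 KD TWEAK cells with 3 libraries each. The study's methods describe the RNA-seq libraries as biological replicates, without saying whether they came from separate cultures; for the ChIP-seq libraries nothing is stated, and their spread may be technical. Neither KD was studied without TWEAK, and whether the KD cells were clones or pools is not given in the sources used here.

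ETS1 is the founding member of the ETS family of transcription factors, which bind purine-rich DNA around a GGAA core through a shared domain. TWEAK is a cytokine of the TNF family that acts through the receptor Fn14 and activates non-canonical NF-κB signalling, in which the NFKB2 product p100 is processed to p52. ETS family members commonly occupy promoters of housekeeping genes, where the GGAA core is often preceded by CC, and p52 binds NF-κB sequences as a dimer with a Rel protein.

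The sequence that ETS factors are best known for at promoters, CCGGAAG, lay on either strand within 100 bp of the strongest summit of 89 differential sites (11.8%). It is shown in capitals below with 10 bases on each side, for strong sites and for sites that also carried p52, because these are the members to which the results return. The coordinates are hg38 and the strand is that on which CCGGAAG reads 5′ to 3′.
ALKBH3 promoter, chr11:43880734-43880760, plus strand: ggactgcgcaCCGGAAGtagtggcggc
SNX12 promoter, chrX:71068527-71068553, minus strand: caaacatcacCCGGAAGcctgaatatg
TRMU promoter, chr22:46335696-46335722, minus strand: ccgcgccttgCCGGAAGtcccgccccg
SIRT6 and ANKRD24 promoter, chr19:4182582-4182608, plus strand: gccgcttccgCCGGAAGcggggcgggg
MCM3AP and YBEY promoter, chr21:46286268-46286294, minus strand: gctgagcgaaCCGGAAGtcggtccgcg
SLX9 and LINC01547 promoter, chr21:44939933-44939959, minus strand: cccgcggccgCCGGAAGtacccggaag
DRG2 promoter, chr17:18087922-18087948, minus strand: tagcgtgcgcCCGGAAGccaaagagaa
WDR73 promoter, chr15:84654276-84654302, minus strand: aagtgagacgCCGGAAGcggtcgttgc
ENSG00000288898 promoter, chr2:218909103-218909129, plus strand: cgtttacaggCCGGAAGtgaggggcgg

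A second word, CTCGCGAG, was noticed in these promoters after the sequences were seen, and lay within the same window of 29 differential sites (3.83%). It reads the same on both strands. Stretches of 3 promoters that hold it are given with the word in capitals, the first pair from the strongest sites of the set and NOL11 from the strongest sites that had no untreated peak.
HNRNPH3 promoter, chr10:68331928-68332047, plus strand: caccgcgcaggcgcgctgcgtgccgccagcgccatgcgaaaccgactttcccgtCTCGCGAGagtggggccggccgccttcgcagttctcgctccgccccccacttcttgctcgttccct
IREB2 promoter, chr15:78438005-78438124, plus strand: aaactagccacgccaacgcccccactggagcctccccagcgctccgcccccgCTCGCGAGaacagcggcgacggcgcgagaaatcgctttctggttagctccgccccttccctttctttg
NOL11 promoter, chr17:67717836-67717930, plus strand: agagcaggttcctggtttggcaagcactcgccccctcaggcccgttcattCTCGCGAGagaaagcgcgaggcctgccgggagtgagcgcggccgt

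Another 29 differential sites (3.83%) lay in tandem repeats, taken as windows of 200 bp in which at least 80% of the bases recur at 1 fixed period of up to 60 bp. This measure was also added after the sequences were seen. The strongest site of the set, the strongest repeat without an untreated peak and a repeat with p52 are shown with the first unit in capitals, and a repeat near SERPINA2, chosen for its p52 values, with its matches to the NF-κB consensus, which read on the minus strand, in capitals.
Repeat 7016 bp from the start of SNAPC1, chr14:61755346-61755465, plus strand: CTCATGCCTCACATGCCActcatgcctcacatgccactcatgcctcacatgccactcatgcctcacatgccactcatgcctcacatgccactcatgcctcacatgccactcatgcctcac
Repeat in an intron of DPP6, chr7:154660899-154661018, plus strand: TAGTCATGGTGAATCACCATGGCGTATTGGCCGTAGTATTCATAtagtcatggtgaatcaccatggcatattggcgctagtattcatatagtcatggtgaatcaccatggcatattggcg
Repeat in an intron of C10orf90, chr10:126672596-126672715, plus strand: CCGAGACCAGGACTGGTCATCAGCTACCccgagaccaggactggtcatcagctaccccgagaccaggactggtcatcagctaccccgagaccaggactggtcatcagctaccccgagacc
Repeat near SERPINA2, chr14:94346029-94346148, plus strand: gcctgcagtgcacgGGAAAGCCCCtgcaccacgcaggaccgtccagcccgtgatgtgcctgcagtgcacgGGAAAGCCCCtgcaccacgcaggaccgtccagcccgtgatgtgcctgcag

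The ETS1 signal at the differential sites was lower than at the common sites and near that of all peaks in the same libraries. The fold enrichment at the summit, which is the ratio of ChIP signal over the input background as the authors' peak caller gave it, had a median of 4.83 in TWEAK replicate 1 (range 1.22 to 19.98) and 4.94 in replicate 2 (range 1.18 to 23.5), against 6.27 and 6.13 at the common sites and 4.81 and 4.90 over all peaks of these libraries. Sites were 214 to 1564 bp long with a median of 425 bp. Across sites, the fold enrichments of both TWEAK replicates had a Pearson r of 0.619 and a Spearman coefficient of 0.478; sites share their libraries and are no replicates of the condition.

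The ETS1 peak lists differed in length. They held 3570 and 3145 peaks with TWEAK, and 4372 and 2066 peaks without. Untreated replicate 1 had a peak at 489 differential sites (64.6%) and untreated replicate 2, with the shortest list, at 57 (7.53%). In 481 cases only replicate 1, in 49 cases only replicate 2 and in 8 cases both had a peak, the last without a merged untreated site at the same bases. Where untreated replicate 1 had a peak, its fold enrichment had a median of 5.01, and the median ratio to the mean of the TWEAK replicates was 0.984. The untreated peak was thus about as high as the TWEAK peaks at these sites, and at 165 of them it was higher than both. Without untreated replicate 2, 268 sites were left. Requiring no peak in either untreated library left 219, and taking the 2066 strongest peaks of each library left 385.

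**Figure D1:**
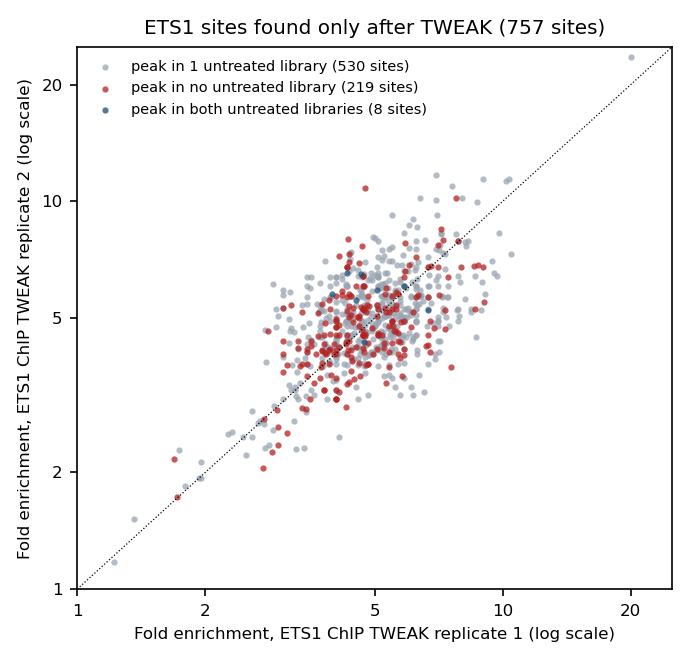
Fold enrichment of the 757 differential ETS1 sites in both TWEAK ChIP-seq replicates (log scales), 1 point a site, coloured by the number of untreated libraries with a peak there; the dotted line marks equal values. Sites with no untreated peak (219) lie among the sites with 1 (530), and the point at 19.98 and 23.5 is the tandem repeat near SNAPC1.

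The edge of the rule cut through peaks of similar strength. The lowest −log10 q-value in the weaker replicate was 1.00, and 105 sites were under 2 there. Just outside the rule, 2317 sites had a peak in 1 TWEAK replicate only, with a median fold enrichment of 4.35 and a median −log10 q-value of 3.35. On the side of the untreated sites, the closest differential site ended 14 bp from an untreated site, 49 lay within 1000 bp of one, and the common site with the shortest overlap shared 5 bp.

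Of the differential sites, 456 (60.2%, exact 95% binomial interval 56.7% to 63.7%) had their centre in a promoter, taken from 1000 bp upstream to 100 bp downstream of an annotated start, against 49.7% of common sites and 41.3% of sites found only without TWEAK. Introns held 17.6%, exons 8.72% and intergenic DNA 13.5%. At the 379 sites in promoters of coding genes the summit lay a median of 58 bp upstream of the nearest start (-58), and 139 summits (36.7%) were within 50 bp of it. When the sites were divided into 4 groups of 189 or 190 by the fold enrichment of the weaker replicate, the promoter share was 47.9% in the weakest, 61.9% and 66.7% in the next and 64.6% in the strongest group. No test between groups of sites was made, since sites of the same libraries are not replicates.

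**Figure D2:**
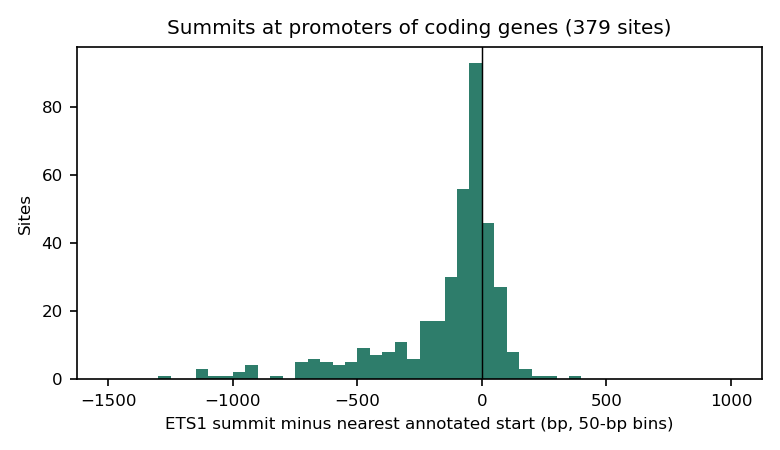
Distance from the ETS1 summit to the nearest annotated start for the 379 differential sites in promoters of coding genes, in bins of 50 bp, negative values upstream. Most summits (292) lie upstream of the start, and 222 (58.6%) lie within 100 bp of it on either side.

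The strongest promoter sites lay at genes of varied roles, and most had an untreated peak as well. The site between DCAF16, a ubiquitin ligase adaptor, and NCAPG, a condensin subunit, had fold enrichments of 10.3 and 11.4 in both TWEAK replicates and 6.64 in untreated replicate 1. The promoter of ALKBH3, a demethylase that repairs alkylated nucleic acids, had 10.2 and 11.3 against 8.07. TIPIN, a replication fork protein, had 8.97 and 11.4 against 9.34. All 3 carried a peak in untreated replicate 1 and none in untreated replicate 2, and at TIPIN the untreated value lay between the TWEAK values.

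HNRNPH3, an RNA-binding protein of the hnRNP H family, had 8.69 and 9.98 with TWEAK and 11.6 in untreated replicate 1, the highest value of the 3 libraries. IREB2, a regulator of iron metabolism that binds RNA, had 8.04 and 10.2 against 6.48, and SNX12, a sorting nexin, had 9.79 and 8.30 against 7.14. The promoters of TRMU, which modifies mitochondrial tRNA, and of SIRT6, a deacetylase of chromatin, had no peak in untreated replicate 1 and a peak of 6.85 and 3.74 in replicate 2. At TRMU the TWEAK values were 8.27 and 7.92, and at SIRT6 8.16 and 7.85. The 10th of these sites, shared by POLE, the catalytic subunit of DNA polymerase epsilon, and PXMP2 (7.83 and 7.92), had no untreated peak, and RPL29 and AMDHD1 had the same pair of values.

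The strongest sites with no peak in either untreated library were also mostly promoters. After POLE they were RPS15, a protein of the small ribosomal subunit (7.78 and 10.2), N6AMT1, a methyltransferase (7.24 and 7.96), and PURA, a protein that binds purine-rich DNA and RNA (7.15 and 8.47). The bidirectional promoter of MCM3AP and YBEY had 7.04 and 7.71, and that of HIRA, a histone H3.3 chaperone, and MRPL40, a mitochondrial ribosomal protein, 9.01 and 6.79. SLX9 (8.57 and 6.80), DRG2, a GTPase (7.05 and 6.79), NOL11, a nucleolar protein of ribosome biogenesis (6.77 and 6.82), and the repeat in DPP6 (8.75 and 6.84) completed the 10. All 10 lay above the median fold enrichment in both replicates, which follows from their choice by the value in the weaker replicate.

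Beside the sequence counts the shares over all 19016 MANE Select promoters, the curated representative starts, are given for windows of the same length. Those windows are centred on the start and the site windows on the ETS1 summit, so they are not alike in position. CCGGAAG lay at 18.4% of the differential promoter sites and 9.89% of the common promoter sites, and in 11.3% of all promoters. Its 111 occurrences at 89 sites lay a median of 43 bp from the summit, 18 sites held at least 2, and 44 occurrences (39.6%) were followed by T, which gives the longer word ACTTCCGG when read on the other strand. ACTTCCGG lay at 5.15% of all differential sites and 1.79% of all common sites, in and outside promoters, and in 5.12% of all promoters. At the differential sites outside promoters its share was 0.332%, so the first 2 shares and the last are not on a like base. The share of sites with CCGGAAG was 5.79%, 14.3%, 9.52% and 17.46% from the weakest to the strongest of the 4 groups, and 15.1% at the sites with no untreated peak against 10.4% at the others. Among differential sites outside promoters it was 1.66%.

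Other words had a different distribution. CTCGCGAG lay at 5.70% of the differential promoter sites at 6.12% of the common promoter sites and in 1.07% of all promoters. The longer palindrome bound by KAISO, which contains CTCGCGAG, lay at 2.64% of differential sites, 2.06% of common sites and 0.484% of all promoters. AGGAAG, another ETS word, was present at 16.8% of differential, 17.7% of common and 22.01% of untreated-only sites and in 23.1% of all promoters, and GGGCGG, the word of the Sp family, at 43.5%, 38.3%, 31.0% and 54.4%. CCAAT, which is bound by NF-Y, had 12.7% at differential sites against 25.3% of all promoters. The NF-κB consensus lay at 6.47% of differential sites, 7.07% of common sites and 6.32% of all promoters. Apart from CTCGCGAG, the site shares of these words are over sites in and outside promoters, and are not on a like base with all promoters. At differential sites outside promoters the shares were 30.9% for GGGCGG, 15.3% for AGGAAG and 13.3% for CCAAT. They were 4.65% for the NF-κB consensus and 0.997% for the KAISO palindrome. Each search covered both strands of 200 bp and is a match of letters only.

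Of the 29 tandem repeats, 28 were outside promoters, where they made up 9.30% of 301 sites. The repeat near SNAPC1, in an intron of the transcript ENSG00000258964 with a period of 18 bp, was the strongest site of the set, with 19.98 and 23.5 with TWEAK, 18.3 in untreated replicate 1 and no peak in untreated replicate 2. Tandem repeats made up 4.83% of common sites and 3.80% of untreated-only sites, and 0.0% of all MANE Select promoters. The promoters are no like background for sites outside promoters, and no share over other DNA was computed. How reads were placed in repeats is not given in the sources used here, and its part in these peaks was not tested.

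RNA Pol II ChIP-seq did not choose the sites and can be compared across conditions over its libraries. A Pol II peak was present at 36.1% and 54.7% of the differential sites in the untreated libraries and at 51.4% and 48.6% in the TWEAK libraries. The difference of the means was 4.62 percentage points with TWEAK higher, the groups overlapped, and the exact two-sided permutation test gave p = 1.0. The test of 2 against 2 libraries cannot give less than 0.333. ETS1 KD libraries had a peak at 42.3% and 45.7%, and NFKB2 KD libraries at 48.2% and 34.9%. The Pol II lists held 24848 and 38307 peaks untreated, 44672 and 27056 with TWEAK, 24710 and 29785 after ETS1 KD and 30310 and 11175 with the NFKB2 guide, and the shortest list gave the lowest share. With equal numbers of the 24848 strongest peaks, the shares were 36.06% and 51.7% untreated and 47.6% and 47.0% with TWEAK.

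Most differential sites kept their Pol II state across the control libraries. All 4 libraries had a peak at 237 sites (31.3%), and no library had one at 283 (37.4%). Only 6 sites (0.793%) had Pol II in both TWEAK libraries and in neither untreated library, against 1.79% of common sites. They were at the promoters of the unnamed lncRNA ENSG00000288898 (8.16 and 4.10 with TWEAK), TNRC18 (6.68 and 10.2), the pseudogenes AFG3L1P and CENPBD1P (8.87 and 12.1) and ITFG1-AS1 (14.6 and 10.2), in an intron of KLHL25 (6.77 and 7.93) and in an intergenic region whose nearest coding gene, at 319145 bp, was PLGLB2 (6.54 and 4.12). The reverse pattern was seen at 2 sites, the promoter of CDK5RAP1 (4.29 and 7.79 untreated) and an intergenic repeat 715203 bp from ZNF33B (5.56 and 2.85). Sites with no untreated ETS1 peak had Pol II in both TWEAK libraries in 54.3% and in both untreated libraries in 43.8% of cases, and the remaining sites in 39.03% and 29.9%.

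p52 was rare at the differential sites. A p52 peak was present at 5.28% and 3.96% of them in the untreated libraries and at 6.47% and 13.3% in the TWEAK libraries, while common sites had 19.5% and 15.9% untreated and 17.98% and 19.7% with TWEAK. At the differential promoters the shares were 0.219% and 0.658% untreated and 3.95% and 12.3% with TWEAK, and at the common promoters 2.88% and 1.62% untreated and 4.86% and 13.3% with TWEAK. Both TWEAK libraries lay above both untreated libraries, in the differential sites as a whole and in their promoters, and the exact permutation test of 2 against 2 libraries cannot give less than 0.333. At the 301 differential sites outside promoters the groups overlapped, with 12.96% and 8.97% untreated and 10.3% and 14.95% with TWEAK. The p52 lists grew from 714 and 452 peaks to 3579 and 11761 with TWEAK, and the TWEAK library with the longer list gave the higher share.

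**Figure D3:**
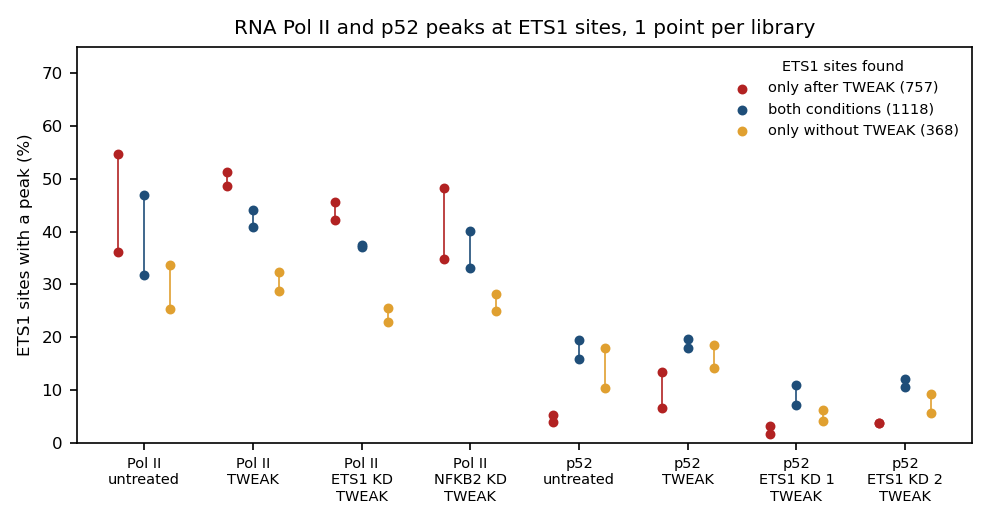
Percentage of ETS1 sites with an RNA Pol II peak (left 4 conditions) or a p52 peak (right 4 conditions), 1 point per ChIP-seq library, lines joining both libraries of a condition, for sites found only after TWEAK, in both conditions or only without TWEAK. Pol II shares of the differential sites overlap between untreated (36.1% and 54.7%) and TWEAK (51.4% and 48.6%), and their p52 shares stay at or under 13.3%.

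In both untreated libraries p52 was present at 19 differential sites (2.51%), 18 of them outside promoters. In both TWEAK libraries 27 differential sites (3.57%) had p52, of which 23 had none in either untreated library. Of the 27, 16 were promoters, 5 were tandem repeats and 3 held the NF-κB consensus. The highest values were at the SERPINA2 repeat printed above, with 46.2 and 88.6, which holds 3 matches to the consensus in its window and had ETS1 values of 3.05 and 5.30. RNU6-1, a gene of the U6 spliceosomal RNA, had 26.0 and 49.4, and was among the few of these 27 with p52 before TWEAK (3.83 and 5.93). RRAD, which encodes a small GTPase that inhibits calcium channels, had 14.4 and 34.4 and no untreated peak. Where untreated cells had no p52 peak no value is listed, and no fold over untreated cells is given.

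Named sites with p52 in both TWEAK libraries and neither untreated library included the divergent promoter of MAGI2, a synaptic scaffold protein, and MAGI2-AS3 (10.9 and 31.9), ENSG00000288898 (10.6 and 25.8) and RCOR3, a corepressor of the CoREST family (12.3 and 22.8). CDCA7L had 11.3 and 18.1, an intronic site at 650 bp from the start of LMNB1, which encodes lamin B1, 9.31 and 22.8, and C16orf46 8.71 and 21.4. WDR73 had 10.6 and 16.8, and PHYH, a peroxisomal enzyme of phytanic acid breakdown, 5.63 and 19.0. The 5.8S rRNA copy on chromosome 21 had 32.8 and 6.06, and the remaining sites of the first 15, in introns of C10orf90 and ENSG00000291210 and in intergenic DNA nearest to NBPF11 and INSIG1, had 4.11 to 6.71. UHRF1, which maintains DNA methylation (4.83 and 13.0), and PLEKHG2 (7.44 and 18.1), are named after their values were seen.

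In TWEAK-treated ETS1 KD cells p52 was retained at some of these 27 sites. The 2 libraries of guide 1 had a peak at 8 and 13, and those of guide 2 at 13 and 14. All 4 KD libraries had a peak at 8, among them RRAD (9.75 and 24.8 with guide 1, 17.3 and 15.8 with guide 2), MAGI2 (13.9, 20.9, 11.7 and 10.3), ENSG00000288898 (11.8, 28.7, 26.3 and 31.6) and the SERPINA2 repeat (32.3, 75.5, 57.1 and 44.6). At 12 (44.4%) no KD library had a peak, and these included the repeats at C10orf90 and INSIG1 and the UHRF1 promoter. Of the 121 common sites with p52 in both TWEAK libraries 20.7% had none in any KD library, and of all 2910 p52 sites 10.8%. These sets differ in p52 strength in TWEAK control cells. Median fold enrichments in replicates 1 and 2 were 6.71 and 6.53 at the 27 sites. They were 4.08 and 3.02 at the 121 common sites and 8.17 and 17.3 over all 2910 p52 sites. The part of peak strength in the shares was not tested. The p52 lists of the KD libraries, with 1387 to 4252 peaks, were all shorter than the longer control list and, in 3 of 4, longer than the shorter one, and no test across libraries was made on these shares.

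For RNA, the 614 genes with a start at a differential promoter site were read from 1 fit over all genes; 432 were coding and 137 were lncRNA genes. Of these, 474 passed the filter on low counts and were tested among 16879 genes with edgeR's quasi-likelihood test and Benjamini-Hochberg adjustment, called at an adjusted p under 0.05. The other 140 genes were not tested, and a gene that is high in 1 group only can pass the filter through that group. RNA levels are CPM, that is counts scaled to library size with TMM factors, given as mean ± SD with n = 3; in these bulk samples less RNA per cell and fewer expressing cells cannot be told apart. The 3 comparisons share the TWEAK control libraries and are therefore given side by side only.

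The check genes followed their labels. ETS1 RNA was 42.8 ± 1.99 CPM untreated, 77.5 ± 8.70 with TWEAK, 33.0 ± 4.78 after ETS1 KD and 60.4 ± 10.1 after NFKB2 KD, a log2 fold change of 0.86 with TWEAK (SE 0.15, adjusted p = 0.0076) and -1.23 in ETS1 KD (SE 0.15, adjusted p = 0.00112). NFKB2 RNA was 56.9 ± 8.77, 290.0 ± 55.4, 239 ± 32.3 and 91.0 ± 14.7 CPM in the same order, with a log2 fold change of -1.67 in NFKB2 KD cells (SE 0.18, adjusted p = 0.00339). Libraries held 28384201 to 40192606 counts. All 8 genes of the U-87 MG marker list had at least 55.1 CPM of the library total in every library, and 12 of 22 markers of neurons, microglia, endothelium and oligodendrocytes were under 1 in every library. The remaining 10 passed the filter on low counts. Highest among them were the neuron markers SNAP25 (12.1 to 19.2 CPM), SYT1 (9.32 to 18.5) and GAD1 (13.9 to 17.7) and the microglia and macrophage marker CSF1R (8.66 to 17.6).

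TWEAK changed RNA of few genes at the differential sites. Of the 474 genes, 9 rose (1.90%, against 1.55% of all genes tested) and 12 fell (2.53%, against 1.53%), and the median log2 fold change was 0.03 against 0.02 for all genes. At an unadjusted p under 0.05 the shares were 14.98% and 14.7%. The counts at the differential sites were thus near those of all genes, and at common sites 10 of 536 genes rose and 16 fell. When 1 library was left out in turn, 4 to 7 genes rose and 2 to 7 fell, and the count of genes that rose was 4 without untreated replicate 1, untreated replicate 2 or TWEAK replicate 3. Genes at sites with no untreated ETS1 peak gave 6 that rose (4.03% of 149: RRAD, EHD1, JUNB, LPXN, TPM1 and ALOXE3) and 0 that fell, where 18 of the 149 had an unadjusted p under 0.05 in either direction.

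RRAD was at 92.3, 98.0 and 111 CPM untreated and at 239, 235 and 214 CPM with TWEAK, with a log2 fold change of 1.19 (SE 0.12, adjusted p = 0.000193). EHD1, an ATPase of endocytic recycling, was at 217, 221 and 269.8 CPM untreated and at 486, 556 and 637 CPM with TWEAK, a log2 fold change of 1.25 (SE 0.15, adjusted p = 0.000533). For both genes the lowest TWEAK library was above the highest untreated library. In ETS1 KD cells RRAD was at 183, 190.5 and 168 CPM and EHD1 at 546, 598 and 655 CPM, and in NFKB2 KD cells RRAD was at 139, 171 and 173 CPM and EHD1 at 392, 327 and 444 CPM. The KD values of RRAD lay between the untreated and TWEAK values, and for neither gene did a KD comparison pass the test (log2 fold changes of RRAD -0.34 in ETS1 KD, adjusted p = 0.211, and -0.51 in NFKB2 KD, adjusted p = 0.407).

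Their promoters carried Pol II in all 8 libraries. At RRAD the Pol II fold enrichment was 35.3 and 36.8 untreated, 161 and 58.4 with TWEAK, 44.5 and 35.6 in ETS1 KD cells, and 41.4 and 16.001 in NFKB2 KD cells. At EHD1 it was 29.5 and 55.0, 173 and 64.7, 55.9 and 51.1, and 65.6 and 24.6. TWEAK replicate 1 was the highest library at both genes, and over the 237 sites with Pol II in every control library its median was also the highest, with 17.7 against 13.0 in TWEAK replicate 2 and 9.44 and 17.0 untreated. The part of this library in the values of the promoters was not tested.

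ALOXE3, a lipoxygenase of the epidermis, was low in all groups, with 1.46, 0.984 and 1.38 CPM untreated and 3.66, 3.29 and 4.33 CPM with TWEAK (log2 fold change 1.56, SE 0.25, adjusted p = 0.00484). It was the only gene at these sites that rose with TWEAK and fell in ETS1 KD cells, where it was at 1.35, 2.27 and 1.63 CPM (log2 fold change -1.10, SE 0.24, adjusted p = 0.0435); this second call was lost with a replicate block (adjusted p = 0.0568) and in 5 of the 6 fits that left out 1 library. TPM1, a tropomyosin of actin filaments, rose from 190.5, 181 and 173 CPM to 291, 263 and 262 CPM (log2 fold change 0.59, adjusted p = 0.00756). JUNB, a subunit of AP-1, was at 45.8, 55.2 and 61.0 CPM untreated and 80.9, 82.7 and 93.0 CPM with TWEAK (0.66 on the log2 scale, adjusted p = 0.0484), a call that was lost whichever library was left out (adjusted p 0.0551 to 0.229).

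The other genes that rose were HSPA6, an inducible HSP70 (0.93 on the log2 scale, adjusted p = 0.0204), LPXN, an adaptor of focal adhesions (0.62, adjusted p = 0.0122), the transcription factor GATA6 (0.62, adjusted p = 0.0356) and TEDC1, a centriole protein (0.57, adjusted p = 0.0226). The ETS1 sites of LPXN, TPM1 and GATA6 were at alternative starts and not at the MANE Select start. EHD1, RRAD, ALOXE3 and TPM1 kept their call in every fit made, and HSPA6, LPXN, GATA6 and TEDC1 lost it in 3 to 5 of the 6 fits with 1 library fewer.

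Among the genes that fell, MAN1C1, a mannosidase of the Golgi, went from 15.6, 18.8 and 20.2 CPM untreated to 5.74, 7.34 and 6.38 CPM with TWEAK (log2 fold change -1.49, SE 0.22, adjusted p = 0.00285). KCNJ2, an inward rectifier potassium channel, went from 6.64, 6.79 and 6.03 CPM to 3.05, 2.94 and 3.03 CPM (-1.11, SE 0.15, adjusted p = 0.0017), and its ETS1 site was strong, with 8.19 and 7.66. Both kept their call in every fit, and their groups did not overlap. GLUL, glutamine synthetase, was at 69.9, 71.6 and 63.8 CPM untreated and 42.4, 37.3 and 39.3 CPM with TWEAK (-0.79, adjusted p = 0.0448). PHYH, whose promoter carried p52, was at 70.3, 64.3 and 58.6 CPM and 50.6, 42.8 and 38.1 CPM (-0.56, adjusted p = 0.0484). The calls of GLUL and PHYH were lost in 6 and 4 of the 6 fits with 1 library fewer.

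ITGB8, an integrin subunit (log2 fold change -1.09, adjusted p = 0.0344), SCN9A, a sodium channel (-0.76, adjusted p = 0.0186), INKA2, an inhibitor of the kinase PAK4 (-0.74, adjusted p = 0.0109), and the antisense gene INKA2-AS1 (-0.83, adjusted p = 0.029) also fell. INKA2 and INKA2-AS1 share an ETS1 site, and without a stated strand setting of the counting their reads cannot be told apart. B4GAT1-DT (-0.95), LHX6 (-0.69), SNTB1 (-0.52) and PROS1 (-0.48) completed the 12, with adjusted p of 0.0269, 0.0257, 0.0312 and 0.0378, and B4GAT1-DT, LHX6 and SNTB1 kept this call in no fit with 1 library fewer. ITGB8, INKA2-AS1 and PROS1 kept it in 1 of these 6 fits, SCN9A in 2 and INKA2 in 4. The 12 genes all had an ETS1 peak in 1 untreated library, as did most tested genes, since only 149 of the 474 lay at sites with no untreated peak.

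**Figure D4:**
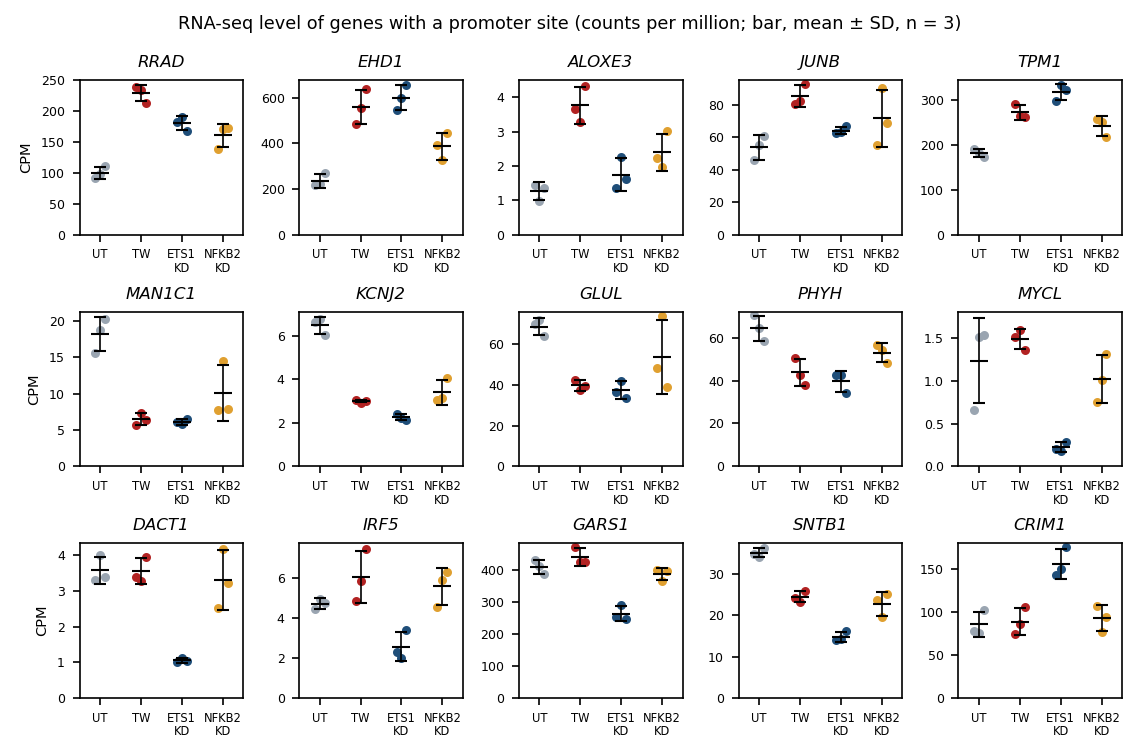
RNA levels of 15 genes with a differential ETS1 promoter site in control untreated (UT), control TWEAK (TW), ETS1 KD TWEAK and NFKB2 KD TWEAK cells, in CPM on linear axes; points are libraries and bars mean ± SD (n = 3). RRAD, EHD1 and ALOXE3 have all TWEAK libraries above all untreated ones, and DACT1, GARS1 and MYCL have all ETS1 KD libraries below all others.

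ETS1 KD lowered 6 of the 474 genes (1.27%, against 1.13% of all genes tested) and raised 1 (0.211%, against 0.255%), with a median log2 fold change of -0.00 (all genes 0.01). DACT1, a Dishevelled-binding protein of Wnt signalling, was at 3.41, 3.29 and 3.97 CPM in TWEAK control and 0.997, 1.13 and 1.03 CPM in ETS1 KD cells (log2 fold change -1.75, SE 0.21, adjusted p = 0.00112). GARS1, the glycyl-tRNA synthetase, was at 474, 425 and 425 CPM and at 253, 292 and 249 CPM (-0.74, SE 0.10, adjusted p = 0.00253). SNTB1, a syntrophin, fell with TWEAK from 35.2 ± 1.12 to 24.5 ± 1.31 CPM and further to 14.8 ± 1.18 CPM in ETS1 KD cells (-0.73, SE 0.12, adjusted p = 0.00715). In none of the 3 genes did the KD libraries overlap the TWEAK control libraries, and all 3 kept the call in every fit.

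MYCL, a gene of the MYC family named outside the rule for its call because of its low level, had 1.51, 1.59 and 1.36 CPM in TWEAK control and 0.205, 0.184 and 0.286 CPM in ETS1 KD cells (log2 fold change -2.70, SE 0.37, adjusted p = 0.00289). Its ETS1 site was weak, with fold enrichments of 3.04 and 3.09. IRF5, an interferon regulatory factor, fell from 4.88, 5.85 and 7.50 CPM to 2.29, 2.02 and 3.40 CPM (-1.24, SE 0.22, adjusted p = 0.0125), without TWEAK replicate 3 or ETS1 KD replicate 1 or 2 at adjusted p of 0.0680, 0.0802 and 0.0708. CRIM1, a membrane protein that binds BMPs, rose from 74.2, 86.1 and 106 CPM to 143, 149 and 175 CPM (0.81, SE 0.17, adjusted p = 0.0347), and lost the call in 5 of 6 fits with 1 library fewer. TWEAK itself did not move DACT1, GARS1, IRF5, MYCL or CRIM1 past the test (log2 fold changes -0.01, 0.10, 0.36, 0.26 and 0.05).

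NFKB2 KD changed the RNA of 0 of the 474 genes by edgeR (all genes 0.00592% higher and 0.0237% lower), where 15 (3.16%) had an unadjusted p under 0.05, and DESeq2 called 0 higher and 1 lower. The median log2 fold change was -0.03, against -0.02 for all genes.

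The gene lists set beside the sites are chosen sets and do not hold every gene of a function. Of all tested genes 2.81% had a start at a differential site. The share was 12 of 82 (14.6%) among cytosolic ribosomal proteins, 9 of 98 (9.18%) among chromatin regulators and 4 of 45 (8.89%) among mitochondrial import and assembly genes. It was 0 among the 26 tested genes listed for the TWEAK receptor and NF-κB pathway and the 18 listed inflammatory cytokines and chemokines. It was also 0 among the 30 listed matrix, protease and adhesion targets, the 46 proteasome subunits and the 19 ETS family factors. Of these, 13 of the 26 pathway genes and 9 of the 18 cytokines rose with TWEAK. The zeros hold for these lists and this promoter window only. ITGA4, ITGB5 and MMP16, which are not in the matrix list, had a differential promoter site. MAP3K14, described below, had a site near its start but outside the promoter window. These shares are counts without a test.

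**Figure D5:**
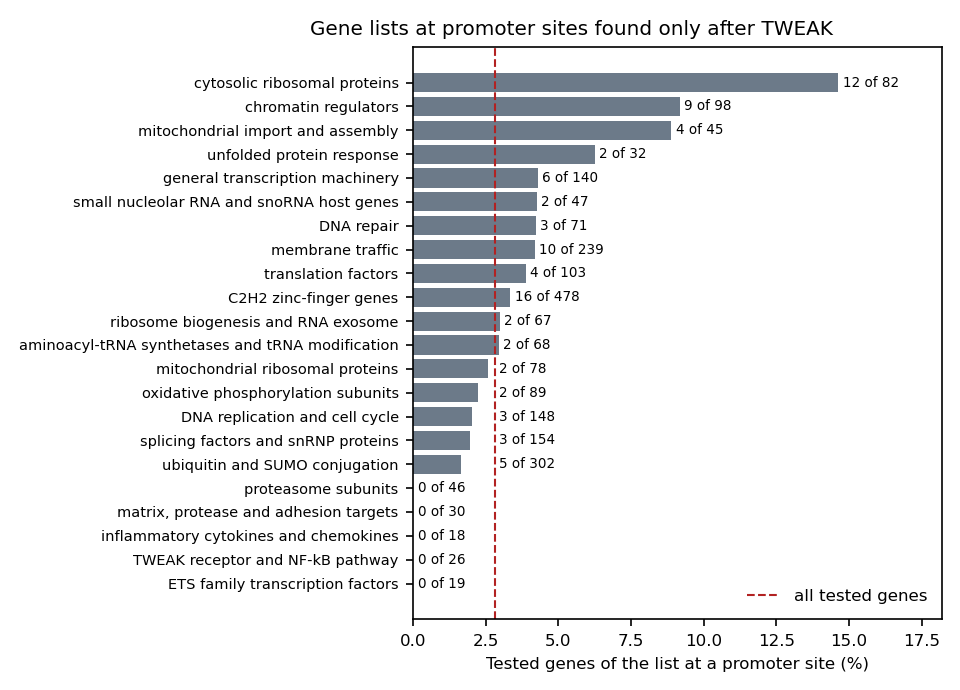
Percentage of the tested genes of each list of at least 15 tested genes whose start lies at a differential promoter site, with the counts beside the bars; the dashed line marks all tested genes (2.81%). Among the lists drawn, cytosolic ribosomal proteins have the largest share (14.6%), and 5 have no gene at such a site.

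The 12 ribosomal protein genes were RPL7, RPL8, RPL12, RPL15, RPL29, RPL37A, RPLP2, RPS3A, RPS15, RPS19, RPS20 and RPS21. At the sites of RPL7, RPL12, RPL15 and RPLP2 the coding start nearest to the summit was that of another gene. RPS19 (9.45 and 7.01), RPL29, RPS15 and RPL12 (7.11 and 7.72) had the strongest sites, and RPS15, RPS20, RPL15 and RPL37A had no untreated peak. Their log2 fold changes were between -0.04 and 0.17 with TWEAK, -0.12 and 0.11 after ETS1 KD and -0.15 and 0.05 after NFKB2 KD, and none passed the test. RPS15, for example, was at 575 ± 58.6 CPM untreated and 560.4 ± 100.3 CPM with TWEAK. Reads of these genes can be shared with their many processed pseudogenes, and the levels are uncertain to that extent. Pol II was present in all 4 control libraries at 11 of the 12, at RPL12 for example with 50.4 and 87.8 untreated and 117 and 70.0 with TWEAK, and absent at the RPL7 site.

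The 9 chromatin regulators were SMARCD2, SMARCD3 and SMARCA2 of the SWI/SNF complex, the methyltransferases KMT2D, SETD6 and SETD7, the deacetylase HDAC10, ING5 and ARID5A. None was called in any comparison, and SMARCD3 had the lowest log2 fold change with TWEAK (-0.63, adjusted p = 0.112). KMT2D had 0.72, but its libraries ranged from 23.2 to 104 CPM untreated and from 21.9 to 130.4 CPM with TWEAK. HSPD1 and HSPE1, the mitochondrial chaperonin pair, share 1 divergent site (5.33 and 4.30), and TIMM13 and COA6 were the other genes of mitochondrial import and assembly; none of the 4 passed the test, with log2 fold changes with TWEAK of -0.02 to 0.16.

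Among larger lists, 16 of 478 C2H2 zinc-finger genes, 10 of 239 membrane traffic genes, 6 of 140 genes of general transcription, 5 of 302 of ubiquitin and SUMO conjugation and 4 of 103 translation factors had a site. The strongest of these were at the shared promoter of VPS9D1 and ZNF276 (10.5 and 7.33), SNX12, ZKSCAN2 (7.30 and 6.67), RAB33B (6.70 and 6.45), POLR3E (6.23 and 6.66), EIF4E2 (5.40 and 6.26), and USP3 (6.34 and 5.70), beside CDC5L (6.09 and 6.89) among 3 of 148 genes of DNA replication and the cell cycle, and their log2 fold changes with TWEAK ran from -0.17 to 0.42 with none past the test. Of the DNA repair list, XRCC5 (5.08 and 6.53) and XRCC2 (5.33 and 5.19), which act in the repair of double-strand breaks, had a site.

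Of the unfolded protein response genes, 2 of 32 had a site, EDEM1 (5.40 and 5.73), a factor of ER-associated degradation, and XBP1 (4.31 and 4.05), the spliced transcription factor of this response. In ETS1 KD cells EDEM1 was at 92.2 ± 5.02 CPM against 119 ± 18.5 CPM in TWEAK control, and XBP1 at 76.8 ± 5.11 against 102 ± 10.5 CPM, log2 fold changes of -0.37 and -0.41 with adjusted p of 0.245 and 0.396. Neither passed the test, while 6 of the 32 genes of the list, none at a differential site, fell in ETS1 KD cells.

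The 301 sites outside promoters were set beside the nearest coding start within 50 kb, a look-up added after the data were seen. It gave 152 tested genes not already counted, of which 7 rose with TWEAK (4.61%, against 1.55% of all genes) and 7 fell (4.61%, against 1.53%). MAP3K14, the kinase NIK of non-canonical NF-κB signalling, with an intronic site 253 bp from its start (4.56 and 4.37), went from 7.54, 7.07 and 13.0 to 18.9, 32.0 and 31.2 CPM (log2 fold change 1.57, SE 0.31, adjusted p = 0.0156). CDK6, a cell cycle kinase with an exonic site, went from 15.3 ± 2.39 to 43.9 ± 11.9 CPM (1.52, adjusted p = 0.0158). CCND1, HAS2, GLDC, HES7 and BCL11B also rose. Those that fell included SLC2A12, a glucose transporter (-1.91, adjusted p = 0.00541), and PDGFRA, a receptor tyrosine kinase with a pair of sites (-1.45, adjusted p = 0.0477). Both were low. SLC2A12 was at 2.00 ± 0.142 CPM untreated and 0.536 ± 0.0641 CPM with TWEAK, and PDGFRA at 1.84 ± 0.398 and 0.674 ± 0.164 CPM.

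In ETS1 KD cells 3 of the 152 nearest genes fell (1.97%, against 1.13%) and 1 rose. Among these, HES1, a Notch target, was low, at 0.825 ± 0.254 CPM in TWEAK control and 0.127 ± 0.0709 CPM in ETS1 KD cells (log2 fold change -2.67, adjusted p = 0.0167). BCL11B, a transcription factor, went from 0.849 ± 0.154 CPM untreated to 2.09 ± 0.109 with TWEAK and was at 0.864 ± 0.101 CPM in ETS1 KD cells (-1.27, adjusted p = 0.0357). TMEM171 rose (0.80, adjusted p = 0.0083). These genes were named after their values were seen, and no contact between a site and a gene was measured.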

How the data were processed

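Per the labels and the study's methods, the authors trimmed reads with Trimmomatic, used STAR on hg38 for RNA-seq and obtained gene counts with featureCounts; these raw counts were deposited. They mapped ChIP-seq reads with Bowtie2 and called peaks with MACS2 in each library over input, and blacklisted regions were removed. The 3 input samples are labelled as TWEAK-treated control and ETS1 KD cells, with none for untreated or NFKB2 KD cells. Which input served which ChIP library is not given. The deposited peak lists give a fold enrichment, −log10 p- and q-values and a score, which is a rescaled q-value that was not used. Versions and the strand setting are not given in the sources used here, ChIP depth is unknown, and the 3 input samples were not analysed here. Antisense pairs therefore cannot be told apart in the counts.

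RNA libraries held 28384201 to 40192606 counts, and replicates differed by more than sampling noise. Genes passing filterByExpr (16879) were fitted over all 12 libraries with edgeR 4.0.16 in R 4.3.3 (TMM, quasi-likelihood test, prior count 2, Benjamini-Hochberg adjusted p under 0.05), and DESeq2 1.42.0 served as an alternative. The fit and the site rule were tested on simulated data. Sites, annotation and sequences were handled with Python 3.11.15, NumPy 2.4.6, pandas 2.3.3, SciPy 1.17.1, pysam 0.24.0 and matplotlib 3.10.9. The binomial interval covers counting error only.

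Sites named are the 10 strongest in the weaker TWEAK replicate, the 10 strongest with no untreated peak and up to 15 with p52 in both TWEAK control libraries. Genes named are, per comparison, up to 8 that rose and 8 that fell by log2 fold change with a mean log2 CPM of at least 1, and up to 4 genes of a list with at least 3 genes at the sites. TEDC1, LHX6, PHYH, PROS1 and MYCL lie outside this rule and complete their counts. The sites and the gene lists were chosen with earlier results of these data known, and CTCGCGAG, the repeat measure, the nearest-gene look-up and the equal-number peak lists were added after the data were seen. Some genes within the rule are not reported here.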

Additional observations from a re-analysis of the deposited data

How the results depend on the processing

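The number of differential sites was 757 as reported, 219 with no untreated peak allowed, 426 from peaks with a −log10 q of at least 5 and 385 from equal numbers of peaks, and it ran from 268 to 2133 when 1 ETS1 library was left out, the highest without TWEAK replicate 2. The promoter share of 60.2% was 75.6% with promoters widened to 2000 bp before and 500 bp after a start and 54.4% to 64.2% with 1 library fewer. The CCGGAAG share of 11.8% was 15.1% with no untreated peak, 15.5% with 200 bp on each side and 10.5% to 15.3% with 1 library fewer. Pol II in both TWEAK libraries (43.5%) was 36.1% at the stricter q-value and 54.3% with no untreated peak, and 48.6% to 51.4% in a single library. Pol II in both untreated libraries (33.9%) was 25.1%, 43.8% and 36.1% to 54.7%, and p52 in both TWEAK libraries (3.57%) was 2.11% at the stricter q-value and 6.47% to 13.3% in a single library. The cause of these shifts was not tested, apart from the smaller number of libraries required.

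For RNA, the counts of genes that rose and fell with TWEAK (9 and 12) were 4 to 7 and 2 to 7 with 1 library fewer, and 0 fell among genes with no untreated ETS1 peak. The count was 1 higher in ETS1 KD cells as reported, 5 with DESeq2, 3 with no filter on low counts, 2 with the replicate block, 0 to 1 with 1 library fewer and 0 with no untreated peak. The 6 lower genes were 4 to 5 with 1 library fewer and 1 with no untreated peak. NFKB2 KD gave 0 lower genes as reported and with 1 library fewer, and 1 with DESeq2. Same-numbered libraries correlated at -0.30 to 0.49 in their deviations from the group means, and 7 of 12 libraries correlated best with their own number, so the numbers were not taken as pairs. The block kept 27 of 28 gene calls, ALOXE3 in ETS1 KD being lost. Of the 28 calls 10 were kept in every fit, and none changed direction. With 2 libraries per ChIP group, the exact permutation test on ChIP shares cannot give less than 0.333.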
